A study of Arabidopsis thaliana with 4 samples.

Results

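Salicylic acid signalling and its pathogenesis-related (PR) output genes were examined in whole Arabidopsis thaliana seedlings of the mutant atino80-5 and of wild type (WT). The set holds 10 genes named by locus, out of 23174 genes with values: the output genes PR1, PR2 and PR5, the synthesis gene ICS1, its activators SARD1 and CBP60G, the EDS1 and PAD4 pair, the co-activator gene NPR1 and its regulator NIMIN1. All 10 were found. The mutant is named for INO80, which encodes the motor subunit of a nucleosome-moving complex of the same name. Seedlings of both genotypes were 14 days old and had grown on agar plates of MS medium at 22 °C under a cycle of 16 h of light and 8 h of darkness, with no pathogen or hormone treatment named in the labels. There were 2 atino80-5 libraries and 2 WT libraries of polyA-selected RNA. The labels name a single mutant line and give neither the lesion nor the accession of either genotype, and do not say that the libraries came from separate cultures. A p-value here therefore reflects variation among these libraries alone, some or all of which may be technical.

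Salicylic acid is a plant hormone of defence against pathogens that feed on living tissue. In Arabidopsis most of it is made in chloroplasts through isochorismate, from ICS1. The lipase-like proteins EDS1 and PAD4 act together upstream, and the transcription factors SARD1 and CBP60G bind and activate ICS1. NPR1 binds salicylic acid and, with TGA transcription factors, switches on PR1, PR2 and PR5, whose secreted proteins serve as markers of the response. NPR3 and NPR4 also bind salicylic acid and repress those genes, and the small NIMIN proteins bind NPR1 and dampen it.

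The 250 bases before the annotated start are shown for the output genes PR2 and PR5, for ICS1, whose level lay on the other side of WT from theirs, and for SARD1, whose window held the most motif matches. They come from RefSeq TAIR10.1 and read 5′ to 3′ on the strand of the gene. Capitals mark matches, on either strand, to TTGAC (the core of the W-box bound by WRKY factors), TGACG (the core of the site bound by TGA factors) and GAAATTT (the core of the element bound by CBP60G and SARD1), where TTGAC and TGACG share letters in TTGACG.
PR2 (chr3:21189968-21190217, minus strand): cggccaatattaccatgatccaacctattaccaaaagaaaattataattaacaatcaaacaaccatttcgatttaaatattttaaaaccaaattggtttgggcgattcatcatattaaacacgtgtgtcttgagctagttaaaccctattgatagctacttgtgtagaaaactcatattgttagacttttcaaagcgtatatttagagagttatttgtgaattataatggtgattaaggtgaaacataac
PR5 (chr1:28177420-28177669, plus strand): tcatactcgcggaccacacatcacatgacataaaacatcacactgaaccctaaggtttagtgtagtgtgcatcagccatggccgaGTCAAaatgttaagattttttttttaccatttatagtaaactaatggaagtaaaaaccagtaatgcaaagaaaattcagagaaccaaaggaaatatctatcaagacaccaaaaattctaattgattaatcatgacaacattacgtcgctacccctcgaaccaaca
ICS1 (chr1:28070045-28070294, plus strand): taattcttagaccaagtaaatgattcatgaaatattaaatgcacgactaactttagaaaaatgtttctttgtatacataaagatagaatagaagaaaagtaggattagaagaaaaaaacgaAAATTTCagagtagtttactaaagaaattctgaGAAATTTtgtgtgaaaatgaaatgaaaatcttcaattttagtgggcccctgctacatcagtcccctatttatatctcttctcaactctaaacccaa
SARD1 (chr1:27749249-27749498, minus strand): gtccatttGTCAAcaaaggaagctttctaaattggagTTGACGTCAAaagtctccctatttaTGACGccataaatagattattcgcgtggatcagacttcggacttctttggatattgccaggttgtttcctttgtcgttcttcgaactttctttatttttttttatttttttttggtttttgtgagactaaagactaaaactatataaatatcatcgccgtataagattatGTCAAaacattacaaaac

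PR5 held 1 match to TTGAC in this window, on the opposite strand, 165 to 161 bases before its start, and PR2 held no match to any of the 3 motifs. ICS1 held 2 matches to GAAATTT, at 129 to 123 and 96 to 90 bases before its start. SARD1 held 4 matches to TTGAC and 3 to TGACG, and 4 of these 7 share letters in the stretch from 213 to 204 bases before its start. Over the 9 genes whose windows were read, 3 windows held TTGAC (PR5, EDS1 and SARD1), against 44.9% of the 27443 windows of protein-coding genes on the nuclear chromosomes. TGACG was in 1 of 9 windows, against 18.6% of all, and GAAATTT in 1 of 9, against 12.5% of all. A match is a description of letters and does not show a bound site.

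Expression was given as FPKM, fragments scaled for gene length and library depth, from which whole reads could be recovered. The atino80-5 libraries held 13068214 and 14746250 reads and the WT libraries 13846046 and 18406709 reads. INO80 itself was at 2.72 and 3.13 FPKM in atino80-5 and at 4.28 and 4.54 FPKM in WT. Its log2 difference of -0.46 (SE 0.15) missed the threshold (limma adjusted p = 0.117). The difference was -0.54 without atino80-5 replicate 2, a fit with a single mutant library. A minimum mean level of 1 FPKM left 17642 genes to test, of which 528 rose and 427 fell in atino80-5 by limma on log2(FPKM + 1) at a Benjamini-Hochberg adjusted p under 0.05. With libraries scaled to their total reads the calls were 484 higher and 1133 lower, and the median log2 difference of all genes was -0.155 in place of 0.03. Since these are whole seedlings, a change in the number of cells of a type and a change in RNA per cell cannot be told apart.

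PR1 was the member that differed most. It encodes a small secreted protein and is the usual marker gene of the salicylic acid response (AT2G14610, chromosome 2, 6241640 to 6242541, minus strand). PR1 stood at 6.19 and 5.63 FPKM in the atino80-5 libraries, against 0.177 and 0.459 FPKM in the WT libraries. Those values came from 55 and 61 reads in atino80-5 and from 2 and 7 reads in WT. Both mutant libraries lay far above both WT libraries, where the gene was barely detected. Its mean was 5.91 ± 0.398 FPKM in atino80-5 and 0.318 ± 0.199 FPKM in WT (SD, n = 2 each), an 18.6-fold rise (log2 difference 2.40, SE 0.17, limma adjusted p = 0.00312). The ratio of scaled reads was 17.4, with an exact 95% interval of 8.8 to 38.9 that covers counting error only. PR1 reached the minimum level for the test only through its mutant values. It was called, as higher, in all 12 alternative fits that could test it, with limma adjusted p-values from 1.5e-06 to 0.00952. No stretch of 50 bases of PR1, PR2 or PR5 was found elsewhere in the reference genome.

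PR2 encodes a beta-1,3-glucanase that attacks fungal cell walls (BGL2, AT3G57260, chromosome 3, 21188397 to 21189967, minus strand). PR2 was at 4.46 and 5.54 FPKM in atino80-5, against 2.60 and 2.00 FPKM in WT. The reads behind these were 70 and 106 in atino80-5 and 52 and 54 in WT. Both mutant libraries stood above both WT libraries. PR2 rose 2.17-fold, a smaller change from a higher WT level than that of PR1 (log2 difference 0.86, SE 0.17, limma adjusted p = 0.0441). This call is near the threshold: the adjusted p was 0.0883 without WT replicate 1, 0.236 without WT replicate 2, 0.0712 with no filter on low values, 0.0607 with total-read scaling and 0.05 in limma without trend. PR5 encodes a thaumatin-like protein (AT1G75040, chromosome 1, 28177670 to 28179022, plus strand). PR5 was at 8.85 and 6.57 FPKM in atino80-5, against 4.89 and 5.27 FPKM in WT. Both mutant libraries were above both WT libraries, but the 1.52-fold difference did not pass (log2 difference 0.51, SE 0.18, limma adjusted p = 0.141). Its 95% interval, not adjusted for the number of genes, ran from 0.08 to 0.93. Without atino80-5 replicate 2 the log2 difference of PR5 was 0.70, in a fit with a single mutant library, the one with the higher PR5 value.

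**Figure D1:**
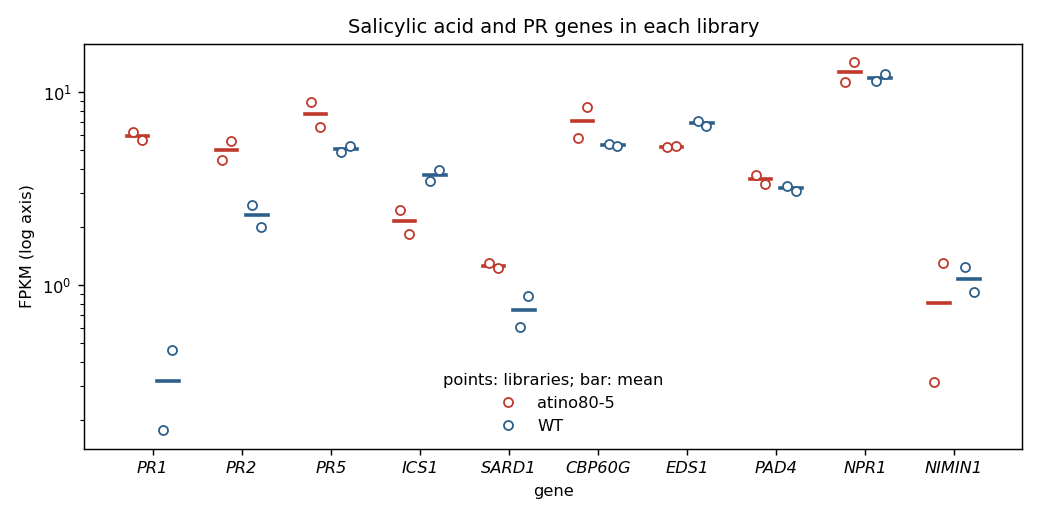
FPKM of the 10 genes in each library, on a log axis, with atino80-5 in red to the left of WT in blue; points are libraries and bars are means of 2 libraries. PR1 stands at 6.19 and 5.63 FPKM in atino80-5 against 0.177 and 0.459 FPKM in WT, while the NPR1 libraries of the genotypes overlap.

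The balance of PR1 to PR2 and PR5 within a library restates its larger rise and is not a further result. Within a library, the FPKM of PR1 was 1.39 and 1.02 times that of PR2 in atino80-5, against 0.068 and 0.229 times in WT. Against PR5 it was 0.70 and 0.857 times in atino80-5 and 0.0362 and 0.0870 times in WT. Neither of these ratios overlapped between the genotypes, which follows from the PR1 values given above. PR2 over PR5 was 0.504 and 0.842 in atino80-5 and 0.533 and 0.380 in WT, and here the libraries overlapped. The summed FPKM of the 3 genes was 19.5 and 17.7 in atino80-5 and 7.67 and 7.74 in WT. These ratios and sums were not tested.

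The synthesis gene ICS1 was lower in the mutant, the opposite direction to the output genes, but did not pass the test. ICS1 encodes isochorismate synthase (named EDS16 in the reference, AT1G74710, chromosome 1, 28070295 to 28074177, plus strand). It stood at 2.44 and 1.84 FPKM in atino80-5, against 3.47 and 3.94 FPKM in WT. Both mutant libraries were below both WT libraries, with means of 2.14 ± 0.427 FPKM in atino80-5 and 3.71 ± 0.335 FPKM in WT (SD, n = 2 each). The log2 difference was -0.59 with an SE of 0.16 (95% interval -0.99 to -0.19, limma adjusted p = 0.0953). The log2 difference was -0.73 without atino80-5 replicate 1, a fit with a single mutant library. ICS1 was called lower under total-read scaling (limma adjusted p = 0.0362), where 1133 genes were called lower against 427 as reported. In the authors' deposited table ICS1 had a log2 fold change of -0.80 with a DESeq2 adjusted p of 0.0765.

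The activators of ICS1 had higher means in atino80-5, and neither passed the test. SARD1 (AT1G73805, chromosome 1, 27744790 to 27749248, minus strand) was at 1.3 and 1.22 FPKM in atino80-5, against 0.609 and 0.877 FPKM in WT. The libraries did not overlap, and the mean was 1.69-fold that of WT (log2 difference 0.38, SE 0.16, limma adjusted p = 0.19). SARD1 sat at the minimum level, with a mean of 1.00 FPKM over the 4 libraries, and passed it through its mutant values. It overlaps AT1G73790 on the other strand, and since the authors' strand setting is not known here, some of its reads may belong to that gene. CBP60G, a calmodulin-binding relative of SARD1 (AT5G26920, chromosome 5, 9475679 to 9478777, plus strand), was at 5.77 and 8.39 FPKM in atino80-5 and at 5.39 and 5.26 FPKM in WT. The mutant libraries were apart from each other, and the lower of them was close to WT (log2 difference 0.33, SE 0.19, limma adjusted p = 0.3). The log2 difference of CBP60G was 0.57 without atino80-5 replicate 1 and 0.10 without atino80-5 replicate 2. Each of these fits has a single mutant library, so the size turned on which one was kept. Within a library SARD1 was 0.225 and 0.145 times CBP60G in atino80-5 and 0.113 and 0.167 times in WT, ranges that overlap.

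EDS1 and PAD4, whose proteins form a complex, stood on either side of WT in the mutant, and neither passed the test. EDS1 (AT3G48090, chromosome 3, 17755329 to 17758147, minus strand) was at 5.17 and 5.24 FPKM in atino80-5, against 7.08 and 6.65 FPKM in WT. The mutant libraries were both lower, and the difference did not pass (log2 difference -0.34, SE 0.14, limma adjusted p = 0.183). PAD4 (AT3G52430, chromosome 3, 19431095 to 19434450, plus strand) was at 3.70 and 3.35 FPKM in atino80-5 and at 3.26 and 3.07 FPKM in WT. Its log2 difference was 0.12 with an SE of 0.14 and a 95% interval of -0.23 to 0.46 (limma adjusted p = 0.608), and it was -0.05 with total-read scaling. PAD4 was 0.715 and 0.640 times EDS1 within the atino80-5 libraries, against 0.460 and 0.462 times in WT, with no overlap and no test. AT3G48080 lies 138 bases from EDS1 on the same strand, and 0.8% of the 50-base stretches of EDS1 were found elsewhere, in the span of that gene or its neighbour AT3G48070. AT3G48080 was at 0.342 and 0.218 FPKM in atino80-5, against 1.04 and 0.929 FPKM in WT. AT3G48080 was below the minimum level and was tested only with no filter, where it was called lower (limma adjusted p = 0.0388).

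NPR1 had the highest level of the 10 genes in every library and did not pass the test. NPR1 (AT1G64280, chromosome 1, 23852748 to 23855658, minus strand) was at 11.2 and 14.2 FPKM in atino80-5, against 11.4 and 12.3 FPKM in WT. The libraries of the genotypes overlapped, with a log2 difference of 0.09, an SE of 0.17 and a 95% interval of -0.33 to 0.50 (limma adjusted p = 0.764). Its sign was negative without atino80-5 replicate 2 (-0.07) and under total-read scaling (-0.12). The annotation places a pseudogene, AT1G64270, and a long noncoding RNA, AT1G08667, on the other strand of NPR1. NIMIN1, whose protein binds NPR1 and holds back PR1 (AT1G02450, chromosome 1, 497917 to 498539, minus strand), was at 0.316 and 1.3 FPKM in atino80-5, against 1.24 and 0.921 FPKM in WT. These came from 2 and 10 reads in atino80-5 and 10 and 10 reads in WT, and the libraries of the genotypes overlapped. NIMIN1 was the member below the minimum level, at a mean of 0.944 FPKM, and with no filter its log2 difference was -0.26 with an SE of 0.27 (limma adjusted p = 0.584).

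**Figure D2:**
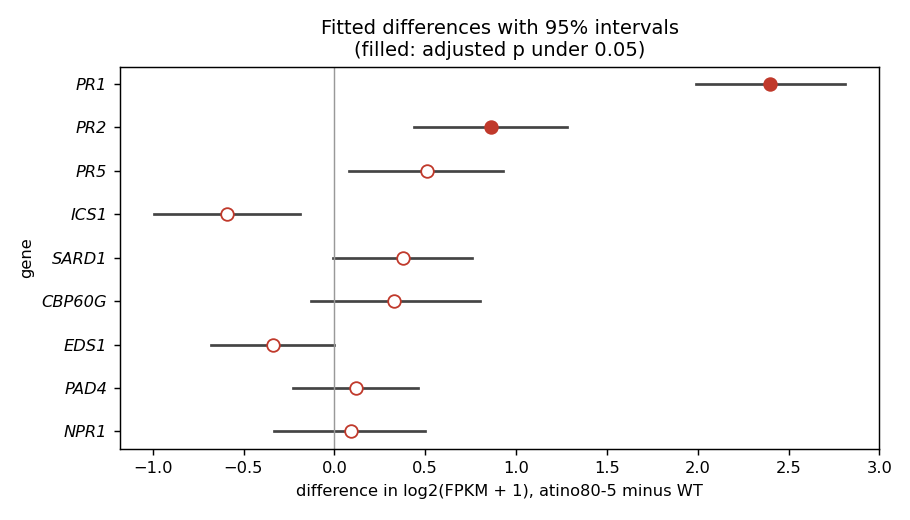
Fitted difference in log2(FPKM + 1), atino80-5 minus WT, of the 9 tested genes, with 95% intervals that are not adjusted for the number of genes. Filled points passed at an adjusted p under 0.05, which PR1 (2.40) and PR2 (0.86) did; ICS1 (-0.59) and EDS1 (-0.34) lie on the lower side.

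Of the 10 genes, 9 were tested, 2 rose, none fell and 7 did not pass, where 5.41% of all tested genes were called, 2.99% as higher and 2.42% as lower. PR1 and SARD1 are among the 9 only through their mutant levels, so this count is set in part by the filter. At an unadjusted p under 0.05 there were 5 of 9, namely PR1, PR2, PR5, EDS1 and ICS1, where 27.0% of all tested genes passed. In the authors' deposited table PR1 (log2 fold change 4.15, adjusted p = 1.81e-07) and PR2 (1.13, adjusted p = 0.0481) were called among the 10, where 9.5% of the genes with an adjusted p were called, and 5.85% were called as higher. The libraries of the genotypes did not overlap for 8 of the 9 tested genes, 6 of them higher and 2 lower in atino80-5, where 62.2% of all tested genes did not overlap, 33.4% on the higher and 28.8% on the lower side. For the other 8 genes of the set, log2 fold changes in the authors' deposited table lay between -0.80 (ICS1) and 0.75 (SARD1), and their adjusted p-values between 0.0765 (ICS1) and 0.885 (NIMIN1). The median log2 difference of the 9 was 0.33, against 0.03 over all tested genes. That median and the 6 higher genes are also set in part by the filter. It kept PR1 and SARD1 through their mutant levels and left out NIMIN1.

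**Figure D3:**
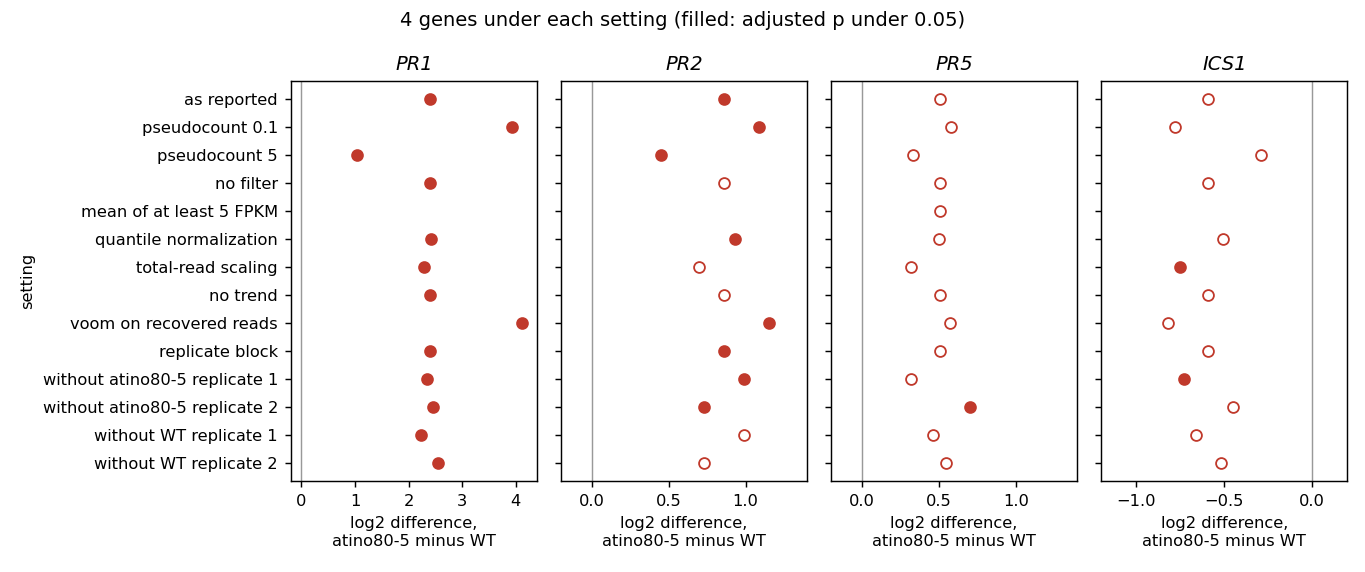
Log2 difference, atino80-5 minus WT, of PR1, PR2, PR5 and ICS1 as reported and under each alternative, with filled points where the adjusted p was under 0.05; the scale of each panel differs, and the pseudocounts and voom change the scale of the difference itself. PR1 is filled in every setting that could test it, PR2 is open without WT replicate 1 (0.99) and without WT replicate 2 (0.73), and ICS1 is below 0 throughout.

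By FPKM, the order of levels in atino80-5 was NPR1 (12.7), PR5 (7.71), CBP60G (7.08), PR1 (5.91), EDS1 (5.20), PR2 (5.00), PAD4 (3.53), ICS1 (2.14), SARD1 (1.26) and NIMIN1 (0.807). Neighbours from PR5 through PR1 overlapped, as did EDS1 with PR2 and SARD1 with NIMIN1. In WT the order was NPR1 (11.8), EDS1 (6.86), CBP60G (5.32), PR5 (5.08), ICS1 (3.71), PAD4 (3.17), PR2 (2.30), NIMIN1 (1.08), SARD1 (0.743) and PR1 (0.318), where the libraries of CBP60G and PR5 alone overlapped with a neighbour. PR1 thus ranked 4 of 10 in atino80-5 and 10 of 10 in WT. The gene length behind the deposited FPKM was above the annotated exon length for 6 of the 10 genes and below it for 4, and stood at 3854 bases for ICS1 against 2180 bases of exon. Per exon length ICS1 averaged 3.78 FPKM in atino80-5 and 6.55 FPKM in WT, which moved it to rank 3 in WT, with libraries that overlapped those of EDS1. PR1 ranked 4 and 10 on that scale too, in atino80-5 and in WT.

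Other genes of the pathway changed in part and in both directions. Of 59 genes in 8 lists, 45 were tested, 4 rose, 4 fell and 37 did not pass, where 5.41% of all tested genes were called. Their median log2 difference was -0.15, against 0.03 over all tested genes. Without overlap of the libraries, 11 of the 45 were higher and 20 were lower in atino80-5. Over all tested genes those shares were 33.4% and 28.8%. The authors' deposited table called 3 of the 59 higher and 7 lower, and gave no adjusted p for BSMT1, WRKY38, WRKY62 and BG3. It called 9.5% of all genes with an adjusted p. In the synthesis and export list, limma and voom each called 0 of the 7 tested genes, and 0 reached an unadjusted p under 0.05. PAL1 and PAL2, phenylalanine ammonia lyase genes of the other route to salicylic acid, were the highest there. PAL1 was at 45.6 and 54.4 FPKM in atino80-5 and 65.6 and 66.1 FPKM in WT (log2 difference -0.40, limma adjusted p = 0.205). Its log2 difference was -0.52 without atino80-5 replicate 2, a fit with a single mutant library. PAL2 was at 28.4 and 29.0 FPKM in atino80-5 and 33.8 and 36.6 FPKM in WT (limma adjusted p = 0.286). PBS3, which conjugates isochorismate to glutamate on the way to salicylic acid and is named after its values were seen, was below the minimum level. It had 9 and 20 reads in atino80-5, against 69 and 103 reads in WT. PBS3 was called lower in the authors' deposited table (log2 fold change -2.15, DESeq2 adjusted p = 0.00109) and by limma with no filter (adjusted p = 0.0263).

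The genes that fell included a hormone-modifying enzyme and regulators around NPR1. UGT74F2, which attaches glucose to salicylic acid, was at 24.7 and 40.0 FPKM in atino80-5, against 227.2 and 168.8 FPKM in WT. It was 6.12-fold lower and was the 1 called gene of 5 tested in the modification and turnover list (log2 difference -2.60, SE 0.28, limma adjusted p = 0.0068), and it overlaps AT2G43830. UGT76B1, another glucosyltransferase gene of that list, named after its values were seen, was at 6.34 and 9.64 FPKM in atino80-5, against 18.5 and 15.3 FPKM in WT (limma adjusted p = 0.0552). It was called lower by voom (limma adjusted p = 0.0318) and in the authors' deposited table (adjusted p = 0.00443). NPR4, a salicylic acid receptor that represses defence genes, was at 3.42 and 4.54 FPKM in atino80-5, against 10.1 and 11.0 FPKM in WT. NPR4 was 2.65-fold lower (log2 difference -1.22, SE 0.17, limma adjusted p = 0.0152) and was called in all 13 alternatives. Its close relative NPR3 was at 9.63 and 8.75 FPKM in atino80-5, against 7.56 and 8.49 FPKM in WT, with a log2 difference of 0.18 (95% interval -0.19 to 0.54, limma adjusted p = 0.469) that was -0.02 with total-read scaling. NPR4 was the 1 called gene of 4 tested in its list. Beside this list and that of UGT74F2, 5.41% of all tested genes were called. NIMIN-3, a relative of NIMIN1, was at 9.54 and 11.8 FPKM in atino80-5, against 27.4 and 20.9 FPKM in WT (log2 difference -1.10, limma adjusted p = 0.031). That call ended without WT replicate 1 (adjusted p = 0.18). None of the 7 TGA genes was called, and their limma adjusted p-values lay between 0.112 and 0.944.

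**Figure D4:**
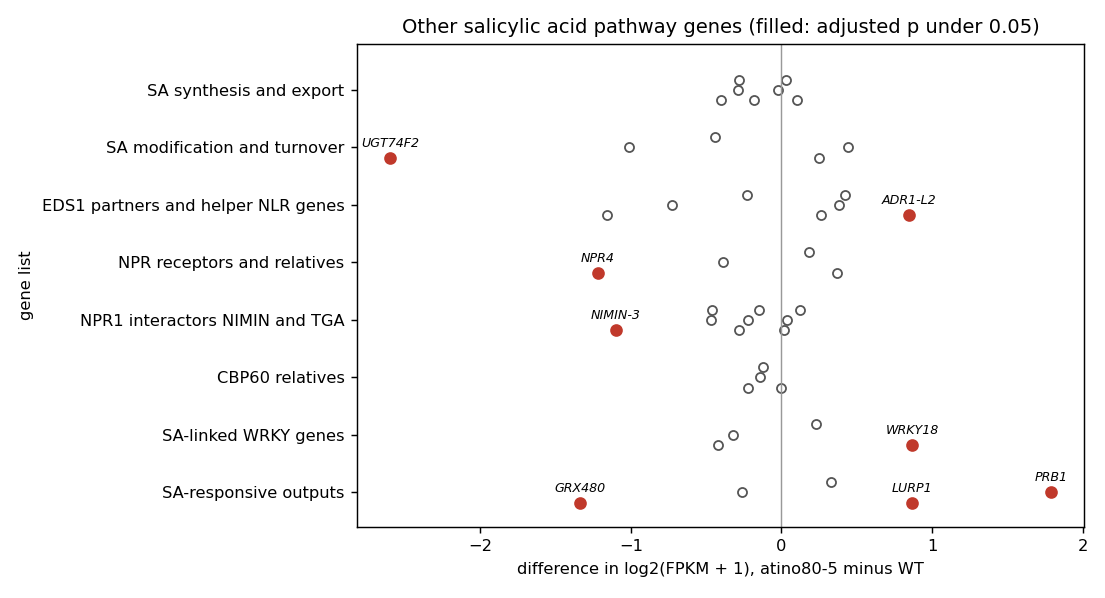
Difference in log2(FPKM + 1), atino80-5 minus WT, of the 45 tested genes of the 8 other pathway lists, 1 point a gene, spread vertically within a list for legibility. Filled, named points passed at an adjusted p under 0.05; UGT74F2 (-2.60) lies farthest to the left and PRB1 (1.79) farthest to the right.

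Among partners of the EDS1 module 1 of 7 tested genes rose and none fell, where 5.41% of all tested genes were called. ADR1-L2, a helper immune receptor gene, was at 27.2 and 23.0 FPKM in atino80-5, against 13.0 and 13.9 FPKM in WT (log2 difference 0.85, limma adjusted p = 0.0382), a call that ended without WT replicate 1 (adjusted p = 0.298), without WT replicate 2 (0.191) and with total-read scaling (0.0516). SAG101, whose protein pairs with EDS1 in place of PAD4, was at 1.43 and 1.27 FPKM in atino80-5, against 3.30 and 2.52 FPKM in WT (log2 difference -0.73, limma adjusted p = 0.0605). The log2 difference of SAG101 was -0.78 without atino80-5 replicate 1 and -0.68 without replicate 2. SAG101 was called lower under total-read scaling (limma adjusted p = 0.0243), where 1133 genes were called lower against 427 as reported. It was also called lower with the replicate block (limma adjusted p = 0.023), where 1985 genes were called against 955 as reported. NDR1, a gene of resistance signalling named after its values were seen, was at 0.961 and 2.28 FPKM in atino80-5, against 5.13 and 4.25 FPKM in WT, and did not pass (limma adjusted p = 0.0589). In the authors' deposited table NDR1 was called lower (log2 fold change -1.51, adjusted p = 0.0494). ADR1-L1 of the same list, also named after its values were seen, was higher and did not pass (limma adjusted p = 0.134). It was at 12.7 and 12.8 FPKM in atino80-5, against 9.20 and 9.39 FPKM in WT. Of the 7 tested genes of this list, 3 were higher and 2 lower without overlap of the libraries. Over all tested genes those shares were 33.4% and 28.8%. In the CBP60 list 0 of 4 tested genes were called by limma or by voom and 0 had an unadjusted p under 0.05. The highest there, AT5G57580 and AT2G18750, had log2 differences of 0.00 and -0.12. Of the 4 tested WRKY genes linked to salicylic acid, WRKY18 rose, at 7.49 and 9.24 FPKM in atino80-5 against 4.30 and 3.90 FPKM in WT (limma adjusted p = 0.0351). It lost that call without WT replicate 1 (limma adjusted p = 0.139), without WT replicate 2 (0.197), with no filter (0.0596) and with total-read scaling (0.0566). The 3 WRKY genes below the minimum level, named after their values were seen, all had fewer reads in the mutant. WRKY46 had 8 and 5 reads in atino80-5 against 39 and 34 in WT. WRKY38 had 0 and 0 in atino80-5 against 5 and 4 in WT, and WRKY62 had 0 and 0 in atino80-5 against 2 and 2 in WT. These reads are not scaled for depth. With no filter none of them was called (limma adjusted p = 0.06 for WRKY46, 0.11 for WRKY38 and 0.21 for WRKY62). In the authors' deposited table WRKY46 did not pass (DESeq2 adjusted p = 0.0536), and WRKY38 and WRKY62 had no adjusted p.

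Further output genes went both ways. Of 5 tested, 2 rose, 1 fell and 2 did not pass, where 5.41% of all tested genes were called. Another 4 were below the minimum level. PRB1, a basic PR1-like gene, was at 8.93 and 9.86 FPKM in atino80-5, against 2.05 and 1.95 FPKM in WT, a 4.70-fold rise (log2 difference 1.79, SE 0.14, limma adjusted p = 0.00398). It lies on the same strand as PR1, 15412 bases away with 4 annotated genes between them. PRB1 is known to answer to ethylene and jasmonate rather than to salicylic acid, so it does not match the name of the list it was put in. LURP1, a gene of the late response to oomycete infection, was at 8.76 and 11.5 FPKM in atino80-5, against 5.24 and 4.86 FPKM in WT (limma adjusted p = 0.043). That call ended without WT replicate 1 (limma adjusted p = 0.163), without WT replicate 2 (0.208), with no filter (0.0673) and with total-read scaling (0.0685). In the authors' deposited table LURP1 was not called (DESeq2 adjusted p = 0.0547). GRX480, a glutaredoxin gene induced by salicylic acid through NPR1 and TGA factors, was at 1.71 and 0.702 FPKM in atino80-5, against 4.37 and 4.49 FPKM in WT. It was 3.67-fold lower (log2 difference -1.34, SE 0.24, limma adjusted p = 0.0304), and its adjusted p was 0.054 with no filter. PR1 and GRX480, both used as markers of salicylic acid, thus lay on opposite sides of 0. GRX480 rested on few reads, 12 and 6 in atino80-5 against 39 and 54 in WT.

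The PR and defensin genes of the jasmonate and ethylene branch also split, with 1 higher, 2 lower and 2 not called of 5 tested. Over all tested genes 5.41% were called. The authors' deposited table called 2 of the 5 higher, PR4 among them (DESeq2 adjusted p = 0.0146), and 2 lower. It called 9.5% of all genes with an adjusted p. PR3, a chitinase gene, rose, at 121.6 and 98.0 FPKM in atino80-5 against 26.6 and 34.4 FPKM in WT (log2 difference 1.82, limma adjusted p = 0.00847). The defensin gene PDF1.2b fell, at 4.67 and 5.65 FPKM in atino80-5 against 29.7 and 29.2 FPKM in WT (log2 difference -2.31, limma adjusted p = 0.00302). PDF1.3, another defensin gene, fell to 9.03 and 8.93 FPKM in atino80-5, against 16.8 and 19.0 FPKM in WT (log2 difference -0.92, limma adjusted p = 0.0248). The call of PDF1.3 ended without WT replicate 1 (limma adjusted p = 0.11) or replicate 2 (0.197). PR3 overlaps AT3G12502, and the related defensin genes may share reads.

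The tested genes whose values over the 4 libraries were most like those of PR1, by root mean square difference of centred log2(FPKM + 1), were AT1G52100 (0.101), AT3G15670 (0.126), AT1G25400 (0.126), LHCB4.3 (0.147) and AT1G02660 (0.171). With 2 libraries a genotype this measure depends mainly on the size of the genotype difference on that scale, which understates changes of low genes. As ratios of mean FPKM these 5 rose 6.54-fold, 58.9-fold, 6.08-fold, 4.98-fold and 8.23-fold in that order, against 18.6-fold for PR1. AT3G15670 reached the minimum level only through its mutant values. AT1G52100 is annotated as a mannose-binding lectin gene and was at 27.8 and 21.0 FPKM in atino80-5, against 3.34 and 4.11 FPKM in WT. AT3G15670, annotated as a late embryogenesis abundant gene, was at 4.27 and 4.64 FPKM in atino80-5, against 0.0609 and 0.0904 FPKM in WT. LHCB4.3 encodes a light-harvesting protein, AT1G02660 an alpha/beta-hydrolase and AT1G25400 an uncharacterized protein.

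Some markers of other tissues and stages also differed between the genotypes, and seed markers most of all. The summed FPKM of 9 seed and embryo markers was 58.3 and 68.0 in atino80-5, against 0.900 and 0.799 in WT, with SESA1, SESA2, SESA3, SESA4 and SESA5 at 0 in both WT libraries. Of these 9 markers, 6 were tested, through their mutant values, and all 6 rose. Of the 9 root markers 7 were tested, and 0 were called by limma or by voom. At an unadjusted p under 0.05 there were 4 of the 7, where 27.0% of all tested genes passed. The summed FPKM of the 9 root markers, 552 and 659 in atino80-5 against 383 and 432 in WT, was carried by PYK10, a beta-glucosidase gene. The other 8 together came to 51.9 and 57.6 in atino80-5 against 59.9 and 59.7 in WT. PYK10 was called higher in the authors' deposited table (DESeq2 adjusted p = 0.0196). Of 5 leaf photosynthesis markers 0 were called by limma or voom and 0 had an unadjusted p under 0.05, with summed FPKM of 40208 and 53542 in atino80-5 and 47280 and 39225 in WT. Of 5 tested senescence markers, SAG29 (log2 difference 1.51, limma adjusted p = 0.0232) and WRKY53 (1.00, limma adjusted p = 0.0241) rose and SAG13 fell (-1.72, limma adjusted p = 0.00508). Over all tested genes 5.41% were called. WRKY53 and SAG13 reached the minimum level only through the genotype in which they were high, atino80-5 for WRKY53 and WT for SAG13. WRKY53 missed the threshold without WT replicate 1 (0.083) or replicate 2 (0.0509). The summed FPKM of the senescence markers was 28.0 and 26.1 in atino80-5, against 20.9 and 19.6 in WT. The part of tissue make-up or stage in the levels of PR1 and PR2 was not tested.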

How the data were processed

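The labels' protocols describe polyA selection and strand-marking dUTP libraries. The tools named in the submitters' processing notes, with neither role nor version, are HISAT2, featureCounts, DESeq2, SAMtools, cutadapt, FastQC and deepTools, beside the TAIR10 build; the strand setting and annotation release are not stated there. The authors deposited FPKM values for 23174 genes per library and the mean of each genotype. The authors also deposited a DESeq2 table with the mean normalised signal over libraries, a log2 fold change, its standard error and test score, and a p-value with an adjusted p. The signal and FPKM together gave whole reads for 100% of 92696 values (tolerance 0.01), with size factors between 0.7849 and 1.3479, so depth is known.

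Values were put on the log2(FPKM + 1) scale, which understates changes of low genes, and genes at a mean of 1 FPKM or more entered limma 3.58.1 (R 4.3.3, trend on). Genotype was the only term, and p-values were Benjamini-Hochberg adjusted over 17642 genes at 0.05. Folds are ratios of mean FPKM. An exact two-sided permutation of 2 against 2 libraries cannot give a p under 0.33. The code was tested on simulated reads. The exact interval (Clopper-Pearson, 95%) used SciPy 1.17.1. Alternatives were pseudocounts of 0.1 and 5, no filter, a minimum of 5 FPKM, quantile normalisation, total-read scaling, limma without trend, voom on the recovered reads, a replicate block, and each library left out.

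Gene positions, names and promoter windows come from RefSeq TAIR10.1, read by its own annotation; no coordinate was carried over from the files, which hold none, and its nuclear chromosomes are those of TAIR10. Its gene models can be longer than those the authors counted. Named were the 10 genes, up to 4 called genes of each list or, where none was called, the 2 highest, 4 close relatives, and the 5 genes most like PR1. Genes marked as named after their values were seen lie outside that rule. All of them except ADR1-L1 were lower in atino80-5, so they do not stand for their lists. The members and lists were chosen with earlier results of these data known. SAG12 of the senescence list was not analysed here, and the promoter window of PR1 is not reported here.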

Additional observations from a re-analysis of the deposited data

How the results depend on the processing

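PR1 kept its direction and its call in all 12 alternatives that could test it. PR2 kept its direction in 12 and its call in 7. No member other than PR1, PR2, PR5, ICS1 and CBP60G was called in any alternative. The number of members called was 2 as reported, where 955 genes were called. It was 1 with no filter (896 genes called), 1 in limma without trend (930) and 2 with total-read scaling (PR1 and ICS1, with 1617). With a minimum of 5 FPKM (572) it was 0 of the 4 members still tested, since PR1 and PR2 lie below that level. At an unadjusted p under 0.05 there was 1 of these 4, where 27.0% of all genes tested as reported passed. With a library left out, 1 genotype keeps a single library, so member counts are not given. The number of genes called, 955 as reported, was 572 with a minimum of 5 FPKM, 1617 with total-read scaling and between 443 and 6896 with a library left out. The 6896 came without atino80-5 replicate 2, a fit that takes the remaining mutant library to vary like WT. Signs turned for PAD4 (-0.05), NPR1 (-0.12) and NPR3 (-0.02) with total-read scaling, for the leaf marker LHCB1.3 (-0.09) with quantile normalisation, and, with a library left out, for NPR1 (-0.07 to 0.24), AT2G18750 (-0.26 to 0.03), the root marker CASP1 (-0.33 to 0.03) and the leaf marker RBCS1A (-0.51 to 0.30). None of these was a called gene, and the cause was not tested. With the replicate number as a block, 1985 genes and 2 members were called. The labels do not say what the number marks, and the same-numbered libraries did not deviate together across genes (r = -0.034), so it was not taken as a pairing. Among the 10 genes, reads were fewest for NIMIN1, with 2 to 10 a library, and for PR1 in WT, with 2 and 7.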
